A study of Mus musculus with 2 samples.

Results

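The 34 genes described here mark the oligodendrocyte lineage, the glial cells that wrap axons in myelin, at 3 steps from the dividing precursor to the maturing cell. They were taken by gene symbol from a list of 7 precursor, 7 committed and 20 maturing genes, out of 55536 annotated genes, and all 34 were found in both libraries. Total RNA was prepared from hippocampi of B6CASTF1/J females aged 10 days, first-generation hybrids of a laboratory strain and a strain derived from wild mice. The labels call the tissue a layer of the hippocampus without naming the layer. Both libraries, biological replicates 1 and 2, were built from 300 ng of a pool of 3 animals, with different animal numbers in each pool, and both were depleted of ribosomal RNA and carried ERCC spike-in RNAs. The labels name no engineered allele and no treatment, and no condition differed between the pools. The data therefore allow levels within the tissue and a comparison of replicate 2 with replicate 1.

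Oligodendrocyte precursors divide under signals through the PDGF receptor alpha and carry the transcription factors Olig1 and Olig2. Cells that commit to differentiation pass through a brief stage marked by Gpr17, Bcas1 and Enpp6, and then switch on Myrf, the factor that drives the genes of the myelin sheath. In rodents this sequence runs through the weeks after birth, and the hippocampus is among the later regions of the brain to be myelinated.

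Levels are TPM (transcript abundance per library after correction for transcript length) in the alignment-based gene table, and differences between the libraries are log2 ratios of expected counts, replicate 2 over replicate 1, after TMM scaling. The libraries held 29858328 and 32275110 expected counts, of which 29756524 and 32148302 lay in annotated genes. Each gene with 10 or more counts over both libraries was tested with an exact two-sided binomial test with Benjamini-Hochberg adjustment over all 20544 such genes, and a call needed an adjusted p under 0.05 and a 2-fold ratio. This test compares the 2 libraries, not conditions, since its error covers the counting of reads only. All 34 members were tested. The median log2 ratio of all genes tested was -0.011, and 48.5% of them were higher in replicate 2.

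No precursor gene differed by 1.5-fold between the libraries, the committed genes were mixed, and most maturing genes were higher in replicate 2. Of the 34 members, 29 reached a TPM of 1 in both libraries. The 5 that did not were Nkx6-2, Opalin, Ermn, Aspa and Gjb1, all of the maturing set. The median TPM of the precursor genes was 16.41 in replicate 1 and 16.98 in replicate 2 (mean 16.7 ± 0.403, SD, n = 2). For the committed genes it was 17.28 and 20.81 (19.05 ± 2.50), and for the maturing genes 6.11 and 9.21 (7.66 ± 2.20). The maturing genes were thus the lowest set by median in both libraries. Their summed TPM was 294.1 and 396.2, a ratio of 1.35, against ratios of 1.05 for the precursor genes and 1.10 for the committed genes. In bulk tissue, more cells of a type and more RNA in each such cell cannot be told apart.

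**Figure D1:**
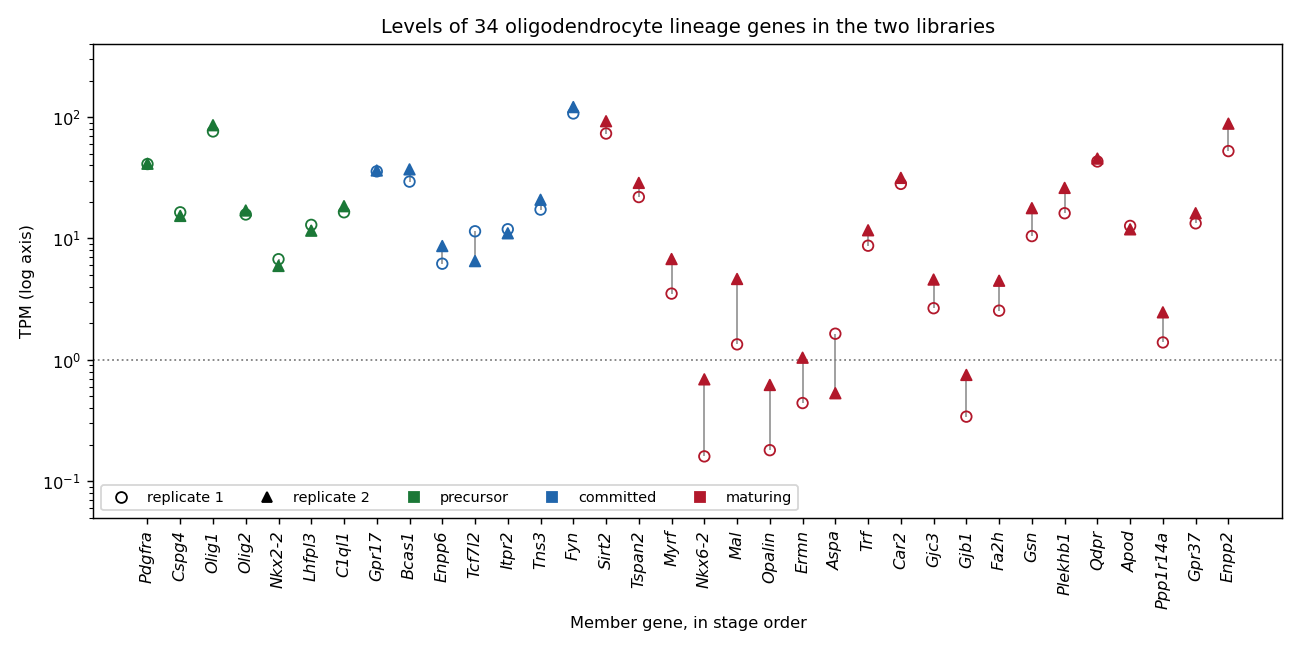
TPM of each of the 34 members (log axis), in stage order, with open circles for replicate 1 and triangles for replicate 2, coloured by stage. The dotted line marks a TPM of 1. The paired symbols of the precursor genes nearly coincide, and in the maturing set the triangle lies above the circle for 18 of 20 genes.

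The 5 members called at 2-fold were Nkx6-2, Mal, Opalin, Ermn and Fa2h, all maturing genes and all higher in replicate 2. Over all genes tested, 0.574% were called higher in replicate 2 and 2.26% higher in replicate 1. The members' calls, 5 of 34 in the first direction and 0 in the second, lay in the direction with fewer calls. Because the members were chosen with earlier results of these data known, this contrast is a description only. The ratios of all genes tested, called or not, were nearly balanced, with 48.5% higher in replicate 2. At a 1.5-fold ratio and the same adjusted p, 12 members were higher in replicate 2, against 1.29% of all genes, and 1 was higher in replicate 1, against 4.4%. The 12 were the same 5 with Enpp6, Myrf, Gjc3, Gsn, Plekhb1, Ppp1r14a and Enpp2, and the 1 was Tcf7l2. By adjusted p alone, with no minimum ratio, 26 members were higher in replicate 2 and 1 was lower. Over all 20544 genes tested, 5572 passed in either direction, and their split by direction is not given here. The 2-fold line falls inside a cluster of members: 6 of them lay between log2 ratios of 0.8 and 1. Fa2h, at 2.001-fold, lay just past it, and Myrf and Gjc3, both at 1.996-fold, just short of it.

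Among the precursor genes, Pdgfra, the PDGF receptor alpha, stood at 41.01 TPM in replicate 1 and 41.23 in replicate 2 (4602 and 5133 counts). Olig1, a helix-loop-helix factor of the lineage, was the most abundant precursor gene at 76.11 and 85.64 TPM. Its neighbour Olig2, which specifies the lineage, stood at 15.75 and 16.98 TPM. Olig1 and Olig2 lie near each other on chromosome 16, at 91269772 to 91271933 and 91225457 to 91228677 (mm10), and the former was the higher gene in both libraries. Cspg4, the NG2 proteoglycan of precursors and pericytes, stood at 16.41 and 15.32 TPM. C1ql1, a secreted C1q-like protein, stood at 16.42 and 18.43 TPM, and Lhfpl3, a tetraspan membrane protein, at 12.93 and 11.58. Nkx2-2, a homeodomain factor that is kept into early differentiation, was the lowest of the 7 at 6.74 and 5.93 TPM.

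The log2 ratios of the 7 precursor genes ran from -0.05 for Lhfpl3 to 0.27 for Olig1, with a median of 0.12, and none was called. Pdgfra had a log2 ratio of 0.12 ± 0.03 (counting SE; exact binomial test, adjusted p = 0.000195) and Olig1 one of 0.27 ± 0.03 (adjusted p = 5.01e-14 by the same test). These small values depend on the scaling: 6 of the 7 were above 0 as reported, but with spike-in scaling Pdgfra fell to -0.16 and Olig1 to -0.013. The adjusted p of Cspg4, Nkx2-2 and Lhfpl3 were 0.165, 0.839 and 0.708 in the exact binomial test. For Cspg4 and Nkx2-2, as for Itpr2 of the committed set, the count ratio and the TPM ratio had opposite signs, with TPM higher in replicate 1.

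Of the committed genes, Fyn, the Src-family kinase that couples axonal contact to myelin protein synthesis and is also abundant in neurons, was the most abundant of all 34 members at 107.04 and 120.80 TPM. Gpr17, the receptor that defines the premyelinating stage, stood at 35.69 and 36.27 TPM. Bcas1, a marker of cells that are forming myelin, stood at 29.38 and 37.05 TPM, and the focal adhesion protein Tns3 at 17.28 and 20.81. Gpr17 was thus nearly level with Pdgfra in each library, at 87.0% and 88.0% of its TPM. Itpr2, the calcium release channel of the endoplasmic reticulum, stood at 11.90 and 11.02 TPM. Enpp6, a choline phosphodiesterase of newly formed oligodendrocytes, stood at 6.19 and 8.65 TPM and at 391 and 718 counts. Tcf7l2, an effector of Wnt signalling that is transiently high in committed cells, stood at 11.45 and 6.50 TPM and at 652 and 428 counts.

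Enpp6 and Tcf7l2 parted in direction although both are placed at this step. Enpp6 (ENSMUSG00000038173.15, chromosome 8, 46986887 to 47096762, plus strand) was higher in replicate 2 by a log2 ratio of 0.84 ± 0.09 (exact binomial test, adjusted p = 9.53e-20). The size of the Enpp6 difference depended on the measure. Its log2 ratio of TPM was 0.48, which is under 1.5-fold, and its read-based TPM was 11.98 and 13.74. Tcf7l2 (ENSMUSG00000024985.19, chromosome 19, 55741820 to 55933654, plus strand) had a log2 ratio of -0.64 ± 0.09 (exact binomial test, adjusted p = 1.31e-11) and was the only member called lower in replicate 2 at 1.5-fold. Bcas1 at 0.51 ± 0.05 and Tns3 at 0.48 ± 0.04 were higher in replicate 2 (exact binomial test, adjusted p = 5.82e-22 and 8.16e-31) but under 1.5-fold. Gpr17 and Fyn had ratios of 0.12 ± 0.03 and 0.21 ± 0.03. With Itpr2 at 0.25 ± 0.05, the median over the 7 genes was 0.25, and spike-in scaling took Gpr17, Fyn and Itpr2 below 0. Without Fyn and Tcf7l2, which other cells also express, the median was 0.48, and it was also 0.48 with Sirt2, Tspan2, Myrf and Nkx6-2 counted as committed.

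Neurons of the thalamus and habenula also express Tcf7l2, and most of the tested markers of those regions were lower in replicate 2 as well. Of the 12 genes on that list 10 were tested, 7 of them lower in replicate 2 and 3 higher, with a median log2 ratio of -0.47. By adjusted p alone 5 were lower and 1 was higher. At 1.5-fold, 4 were called lower, among them the vesicular glutamate transporter Slc17a6 at 25.22 and 14.02 TPM and Gbx2 at 10 and 1 counts. The summed TPM of the list was 120.9 and 100.4, and Chrnb4 and Pou4f1 stood at 4 counts or fewer in each library. Their part in the Tcf7l2 ratio was not tested.

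The maturing set held the widest range of levels, from Enpp2 and Sirt2 among the abundant genes of the tissue to Opalin and Nkx6-2 near the limit of detection. Ranked among the 13019 nuclear protein-coding genes at a TPM of 1 in both libraries, whose median TPM was 15.4, Sirt2 lay at percentile 91.5, Enpp2 at 89.6, Myrf at 20.99 and Mal at 11.9. For comparison Fyn lay at percentile 94.5, Olig1 at 91.3, Pdgfra at 79.7 and Gpr17 at 76.3. The median log2 ratio of the 20 maturing genes was 0.93, and 18 of the 20 were higher in replicate 2.

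Sirt2, the NAD-dependent deacetylase enriched in myelin, stood at 73.15 and 92.35 TPM, with a log2 ratio of 0.43 ± 0.04. Tspan2, a tetraspanin of the myelin proteolipid complex, stood at 21.92 and 28.66 TPM, with a ratio of 0.48 ± 0.05. Both were higher in replicate 2 by less than 1.5-fold. Myrf, the membrane-bound factor that starts the myelin programme (ENSMUSG00000036098.15, chromosome 19, 10208272 to 10240748, minus strand), stood at 3.51 and 6.76 TPM and at 359 and 734 counts. Its ratio was 1.996-fold (exact binomial test, adjusted p = 1.21e-26), with a 95% counting interval of the log2 ratio from 0.82 to 1.18. Gpr37, an orphan receptor that appears late in differentiation, stood at 13.31 and 16.13 TPM with a log2 ratio of 0.42 ± 0.06.

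The proteolipid Mal (ENSMUSG00000027375.14, chromosome 2, 127633226 to 127656695, minus strand), which sorts lipids and proteins into the myelin membrane, had the smallest adjusted p of the called members. It stood at 1.34 TPM in replicate 1 and 4.63 in replicate 2, from 74 and 281 counts, a log2 ratio of 1.88 ± 0.19 (exact binomial test, adjusted p = 7.26e-27). Fa2h, which makes the hydroxylated lipids of myelin, stood at 2.54 and 4.48 TPM (113 and 232 counts), with a log2 ratio of 1.00 ± 0.17 (exact binomial test, adjusted p = 7.35e-09). Ermn, a cytoskeletal protein of the oligodendrocyte process, stood at 0.44 and 1.04 TPM (32 and 83 counts), and its log2 ratio was 1.33 ± 0.30 (exact binomial test, adjusted p = 3.50e-05).

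Opalin and Nkx6-2 were called from few reads. Opalin, a sialylated membrane protein of the sheath, stood at 0.18 and 0.62 TPM on 8 and 29 counts, a log2 ratio of 1.76 ± 0.56 (exact binomial test, adjusted p = 0.0045). Nkx6-2, a homeodomain repressor of maturing cells, stood at 0.16 and 0.69 TPM on 4 and 21 counts, a log2 ratio of 2.22 ± 0.75 (exact binomial test, adjusted p = 0.00527). The 95% counting interval of Nkx6-2 ran from 0.76 to 3.69, the widest of the called members. Nkx6-2 also shares its locus with Inpp5a, which lies on the opposite strand and had 946 and 1050 counts. Whether the counting used strand is not given in these sources, which makes the level of Nkx6-2 uncertain. The same holds for Sirt2 against Nfkbib (337 and 397 counts), Gpr17 against Lims2 (118 and 169) and Ermn against Galnt5 (8 and 6), all on the opposite strand. Trf overlaps Gm20425 on its own strand (135 and 187 expected counts), where strand cannot separate the reads, so its level is also uncertain.

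The 4 called members with the largest ratios were all higher in replicate 2, and their choice was made after the values were seen. The 250 bases before the annotated start of each are given here, so that the letters can be compared. They are from RefSeq on GRCm38.p6 and all lie on the minus strand, at chr2:58052865-58053114 for Ermn, chr2:127656696-127656945 for Mal, chr7:139582798-139583047 for Nkx6-2 and chr19:41077114-41077363 for Opalin. Each is written 5′ to 3′ in the direction of transcription and ends at the base before the start, with capitals for matches to the motifs described after them.
Ermn: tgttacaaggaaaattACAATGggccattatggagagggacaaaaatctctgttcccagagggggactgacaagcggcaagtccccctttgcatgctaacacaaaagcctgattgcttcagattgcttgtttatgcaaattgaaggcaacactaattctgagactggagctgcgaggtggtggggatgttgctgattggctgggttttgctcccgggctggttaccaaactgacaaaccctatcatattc
Mal: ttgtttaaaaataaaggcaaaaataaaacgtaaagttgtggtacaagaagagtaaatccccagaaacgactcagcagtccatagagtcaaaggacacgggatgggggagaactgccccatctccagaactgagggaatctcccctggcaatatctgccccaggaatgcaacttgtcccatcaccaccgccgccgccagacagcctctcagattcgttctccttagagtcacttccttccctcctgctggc
Nkx6-2: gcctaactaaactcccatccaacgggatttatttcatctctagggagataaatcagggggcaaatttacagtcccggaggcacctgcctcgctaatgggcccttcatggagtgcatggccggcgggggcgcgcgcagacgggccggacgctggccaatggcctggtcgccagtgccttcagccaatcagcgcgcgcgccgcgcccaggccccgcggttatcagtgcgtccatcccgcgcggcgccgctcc
Opalin: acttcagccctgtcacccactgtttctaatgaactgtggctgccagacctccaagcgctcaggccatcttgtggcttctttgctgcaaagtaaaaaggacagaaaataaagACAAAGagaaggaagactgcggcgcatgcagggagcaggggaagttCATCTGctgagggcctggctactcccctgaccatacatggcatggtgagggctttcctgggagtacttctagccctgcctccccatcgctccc
GC content ran from 47.2% for Ermn to 65.2% for Nkx6-2, against a median of 52.4% over all 32851 RefSeq promoter windows of that length. The motifs searched on both strands were the SOX cores ACAAAG and ACAATG, the E-boxes CAGCTG and CATCTG, the MYRF motif CTGGCAC and the TATA box TATAAA. The windows of Mal and Nkx6-2 held none of them. Counted from the start, Ermn held ACAATG at position -234, and Opalin held ACAAAG at -139 and CATCTG at -93.

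RefSeq windows were matched for 25 of the 34 members, 33 windows in all, since a gene can have several. A SOX core of either spelling was in 13 of the 33, against 25.2% of all windows, and an E-box of either spelling in 15, against 25.5%. CATCTG alone was in 12 of the 33 windows, against 14.4% of all windows. By set it was in 2 of 5 precursor windows, 0 of 6 committed windows and 10 of 22 maturing windows. CAGCTG was in 4 (13.0% of all windows), ACAAAG in 7 (16.5%), ACAATG in 7 (10.7%) and TATAAA in 4 (12.4%). CTGGCAC was in 0 of the 33 and in 4.19% of all windows. A match describes the letters of the window and nothing of the binding of a factor.

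The gap junction genes of the maturing set were also higher in replicate 2, one of them without passing the test. Gjc3, a connexin of oligodendrocytes and Schwann cells, stood at 2.66 and 4.58 TPM on 198 and 405 counts, 1.996-fold (exact binomial test, adjusted p = 6.35e-15). Gjb1, a connexin of myelinating cells and of liver, stood at 0.34 and 0.75 TPM on 10 and 25 counts, with an adjusted p of 0.0598 in the exact binomial test. Ppp1r14a, a phosphatase inhibitor, stood at 1.39 and 2.46 TPM on 23 and 47 counts, a log2 ratio of 0.98 ± 0.36 (exact binomial test, adjusted p = 0.0251). Aspa, the enzyme that splits N-acetylaspartate for lipid synthesis, pointed the other way at 1.64 and 0.53 TPM. It rested on 34 and 20 counts and did not pass the test (log2 ratio -0.78 ± 0.40, exact binomial test, adjusted p = 0.152).

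Of the maturing genes, 7 were set apart as also known from other cells: Trf, Car2, Gsn, Apod, Enpp2, Qdpr and Plekhb1. The division is not strict, since some of the rest, such as Gjc3 and Gjb1, are known from other cells too. Enpp2, the lysophospholipase autotaxin, which choroid plexus epithelium also makes, stood at 52.41 and 88.20 TPM on 2537 and 5117 counts. Its log2 ratio was 0.98 ± 0.04 (exact binomial test, adjusted p = 3.13e-179). Gsn, the actin-severing protein gelsolin, stood at 10.45 and 17.75 TPM, with a log2 ratio of 0.89 ± 0.08. Plekhb1, a membrane-associated PH-domain protein, stood at 16.12 and 26.07 TPM, with a ratio of 0.66 ± 0.08. These 3 passed 1.5-fold and the other 4 did not.

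Trf, the iron carrier transferrin, stood at 8.71 and 11.67 TPM (log2 ratio 0.42 ± 0.11), and Car2, a carbonic anhydrase, at 28.14 and 31.53 (0.26 ± 0.06). Qdpr, which regenerates tetrahydrobiopterin, stood at 43.04 and 45.46 TPM, and its ratio of 0.14 ± 0.06 did not pass the exact binomial test (adjusted p = 0.0744). Apod, the lipid carrier apolipoprotein D, stood at 12.68 and 11.88 TPM (log2 ratio -0.08 ± 0.13, exact binomial test, adjusted p = 0.752). The median log2 ratio of these 7 genes was 0.42, and 0 of them were called at 2-fold. The other 13 maturing genes had a median of 1.00, 12 of the 13 were higher in replicate 2, and all 5 calls lay among them. By summed TPM the 2 groups were alike, with a ratio of 1.34 for the 13 genes and 1.36 for the 7. The 13 genes were also the lower group, with a median TPM of 1.64 and 4.48 against 16.12 and 26.07.

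**Figure D2:**
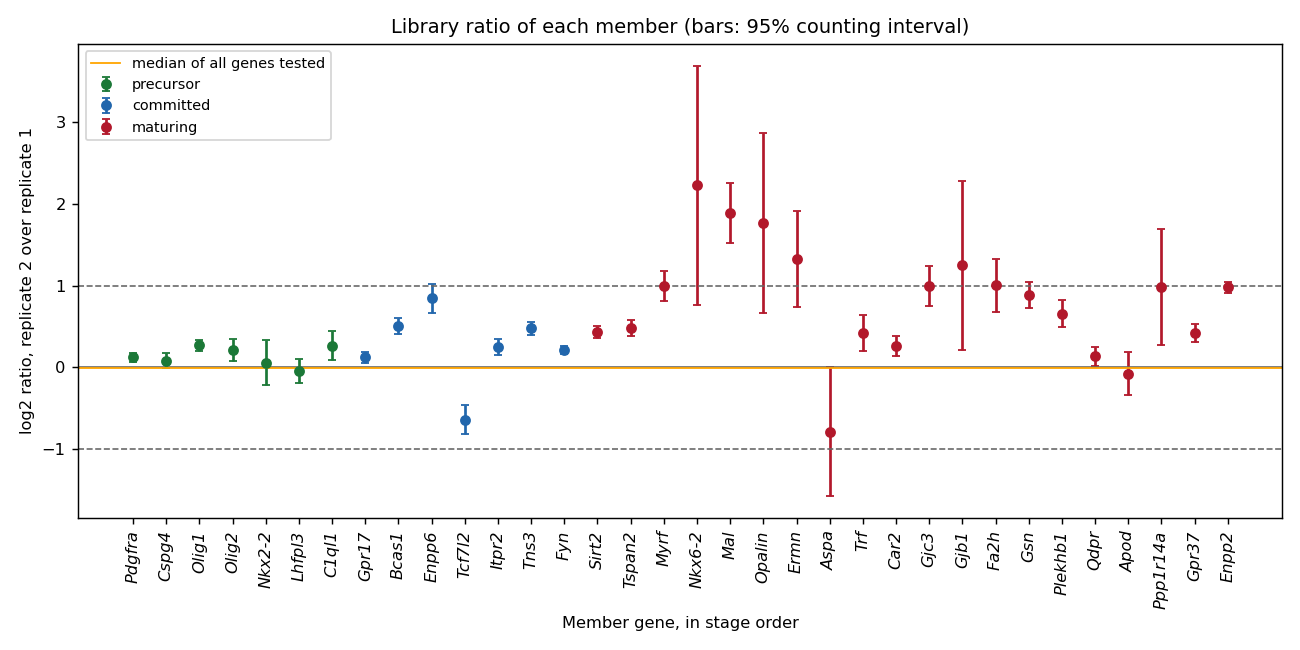
Log2 ratio of expected counts, replicate 2 over replicate 1, for each of the 34 members in stage order, with bars for the 95% counting interval. Dashed lines mark 2-fold and the orange line the median of all genes tested (-0.011). Enpp2 combines a high ratio with a short bar, Mal has a higher ratio with a longer bar, Nkx6-2 and Opalin have long bars, and Tcf7l2 lies below 0 with its whole bar.

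Choroid plexus markers lay in the same direction as Enpp2. All 10 of that list were higher in replicate 2, with a median log2 ratio of 0.57. At 1.5-fold 5 were called and at 2-fold none. Their summed TPM was 447.7 and 702.1, most of it from Ttr, the thyroid hormone carrier, at 422 and 670.1 TPM, and no marker on the list was at 0. Of the 6 Schwann cell markers 5 were tested, and 2 were called higher in replicate 2, among them Cdh19 on 5 and 19 counts. Their summed TPM was 2.58 and 3.16, with Pmp2 at 2 and 0 counts, so these cells' markers were near the limit of detection in both libraries. Their part in the ratios of the maturing genes was not tested.

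Of 12072 protein-coding genes at 200 counts or above, 98.3% differed by less than 1.5-fold between the libraries, and the SD of the log2 ratio was 0.23 around a median of 0.04. In this ranking from the highest ratio down, Mal was at rank 3, Fa2h at 20, Myrf at 21, Gjc3 at 22, Enpp2 at 23, Gsn at 29 and Enpp6 at 37. Plekhb1 followed at rank 70 and Bcas1 at 151, whereas Pdgfra was at rank 3637 and Apod at 8826. Members with fewer reads have no rank here: 6 members, among them Opalin, Nkx6-2 and Ermn, held under 200 counts over both libraries.

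Ratios of members to one another within a library do not depend on the scaling between libraries. Relative to the TPM of Pdgfra in the same library, Mal was 3.27% in replicate 1 and 11.2% in replicate 2. Myrf was 8.56% and 16.4%, Gjc3 6.49% and 11.1%, Fa2h 6.19% and 10.9%, and Ermn 1.07% and 2.52%. Enpp2 exceeded Pdgfra in both libraries, at 128% and 214%. Bcas1 was 71.6% and 89.9%, and Tcf7l2 27.9% and 15.8%. Against these, Gpr17 and Qdpr (105% and 110%) kept nearly the same standing to Pdgfra in both libraries.

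Transcript estimates show which annotated forms carried the members' RNA. The files give 186 transcripts for the 34 genes, each with an interval around its TPM of unstated confidence level. In 25 members with a mean TPM of 5 or more, the leading transcript held a median of 64.5% of the gene's TPM in replicate 1 and 63.8% in replicate 2, and it was protein-coding in all 25. It was the same transcript in both libraries for 23 of these. For 19 transcripts the 2 libraries' intervals lay apart with replicate 2 higher, and for 2 with replicate 1 higher, both of them from Tcf7l2. Of the 94563 transcripts of all genes tested, intervals lay apart in these directions for 1.32% and 4.51%.

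The leading Myrf form, Myrf-201, stood at 2.37 TPM (interval 1.82 to 2.54) in replicate 1 and 4.22 (3.61 to 4.50) in replicate 2. The second form, Myrf-202, stood at 0.37 (0.122 to 0.677) and 2.03 (1.42 to 2.47), and its share of the gene's TPM was 10.5% and 30.1%. Both protein-coding forms were thus higher in replicate 2. Of Bcas1, Bcas1-208 stood at 11.31 and 18.14 TPM with intervals apart, while Bcas1-201, at 11.34 and 13.70, had intervals that overlapped. Enpp6-201 stood at 3.38 (2.87 to 3.67) and 5.95 (5.27 to 6.25) TPM.

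Enpp2-201 carried most of the autotaxin difference, at 34.52 (31.3 to 35.1) and 63.35 (58.6 to 63.8) TPM. Fyn-202, the leading Fyn form, differed little at 57.11 and 59.47 TPM, and Fyn-206 stood at 15.21 and 25.51. For Tcf7l2, with 22 annotated transcripts, Tcf7l2-209 was the leading form at 5.15 (3.996 to 5.50) and 3.25 (2.32 to 3.42). Mal-202 held all the TPM of Mal, and Ermn, Olig1, Olig2, C1ql1 and Gpr17 have 1 annotated transcript each.

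**Figure D3:**
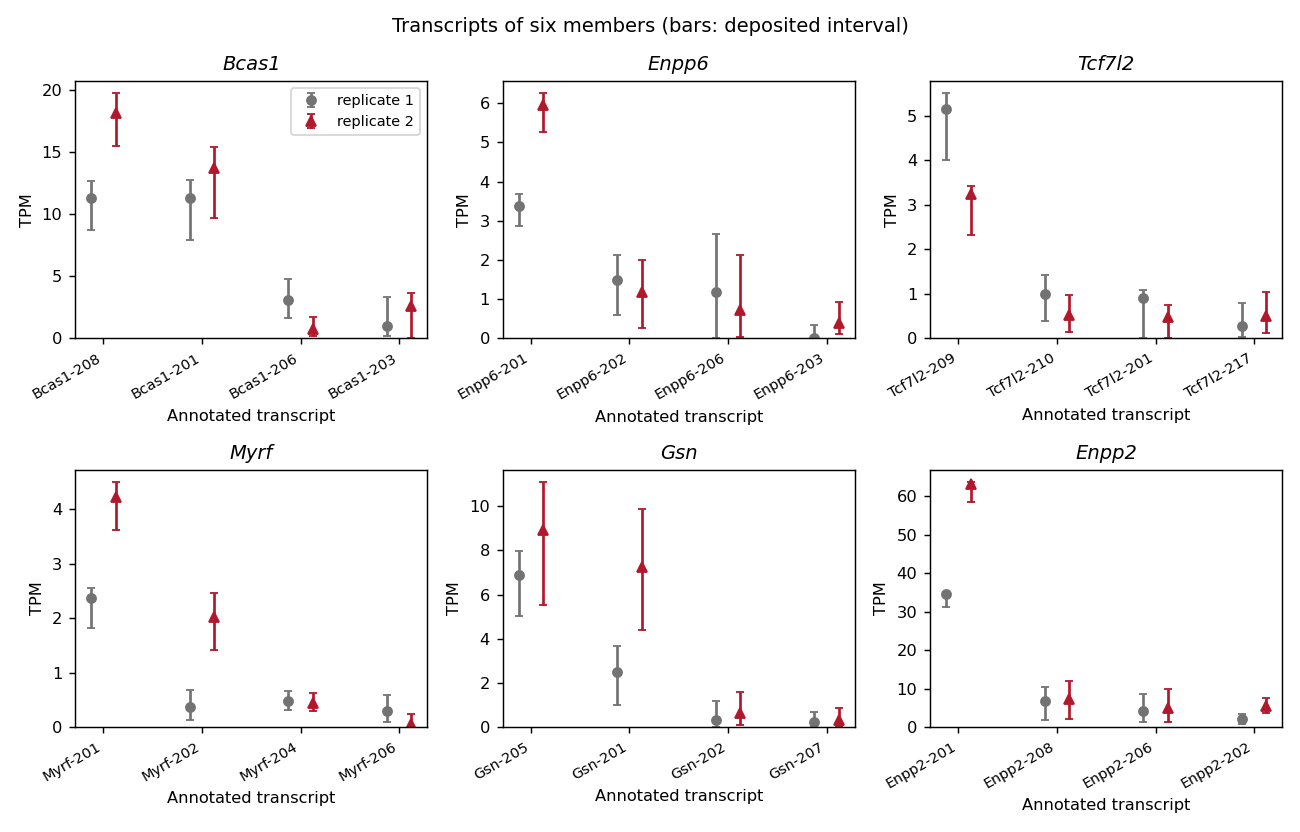
TPM of the 4 leading annotated transcripts of Bcas1, Enpp6, Tcf7l2, Myrf, Gsn and Enpp2, with bars for the deposited interval, grey for replicate 1 and red for replicate 2. Bars lie apart for Bcas1-208, Enpp6-201, Tcf7l2-209, both leading Myrf forms, Gsn-201, Enpp2-201 and Enpp2-202.

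Some of the TPM of certain members lay in forms of a type other than protein-coding. These include retained introns, processed transcripts and forms annotated to nonsense-mediated decay, which carry a reading frame. For Itpr2 the decay form Itpr2-206 alone held 27.4% and 30.8% of the TPM. The share of all such forms was 56.0% and 46.3% for Cspg4, 51.5% and 41.0% for Itpr2, 38.9% and 47.6% for Trf, and 39.5% and 66.2% for Apod. For Myrf it was 22.2% and 7.41%, for Fa2h 36.8% and 13.4%, and for Opalin 38.9% and 32.3%. The assignment of reads to forms depended on the estimate. In the read-based table the share of these forms was 17.3% and 21.5% for Fa2h and 23.1% and 5.43% for Trf, so that the order of the libraries turned. For Apod it was 18.4% and 19.7%. For Cspg4 it was 27.5% and 19.2%, for Itpr2 41.3% and 36.4% and for Myrf 29.8% and 11.2%, with the order kept. For Opalin, which rested on 8 and 29 counts, the read-based share was 100% and 49.1%. For Gsn, Gsn-205 held 66.0% and 50.4% of the TPM in the alignment-based table, yet it was close to 0 in the table estimated from reads without alignment, where Gsn-201 held 81.0% and 85.8%. The leading transcript was the same in both tables for 27 of the 34 members, and for 20 of the 25 with a mean TPM of 5 or more.

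The read-based table gave a higher mean TPM for every member, by 1.17 to 2.32 times with a median of 1.56. The sign of the log2 ratio was the same in both tables for 33 of the 34 members, with Lhfpl3 as the exception, and the 5 called members were called in both. Mal had a log2 ratio of 1.93 and Enpp2 one of 1.01 in the read-based table, and the latter was called there.

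Beyond the members, the proteins of compact myelin had the highest median ratio of the lists compared, a pattern that was known when the members were chosen and is given as background. All 8 of these genes were higher in replicate 2, 7 were called, and the median log2 ratio was 1.64. Their summed TPM was 228.3 and 628.3, led by Mbp at 80.5 and 253.5, with Omg, at 23.73 and 26.56, as the gene not called. A further list of 20 maturing genes had a median of 0.60 over the 19 tested, with 5 called higher in replicate 2 and 0 lower. Among them was Ugt8a, the enzyme of galactolipid synthesis (6.74 and 14.51 TPM, log2 ratio 1.19). Its summed TPM was 151.3 and 191.8.

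Lists of earlier genes of the lineage had medians nearer to 0. A list of 10 further precursor genes had a median log2 ratio of 0.03 with 0 called at 2-fold, 3 higher and 1 lower by adjusted p alone, and a summed TPM of 740.1 and 729.5. The 15 other lineage regulators had a median of 0.07 with 0 called at 2-fold and 3 higher and 3 lower by adjusted p alone. Over all 20544 genes tested, 5572 passed by adjusted p alone in either direction. Sox10, a lineage regulator on that list which acts throughout the lineage, stood at 16.66 and 16.93 TPM. Median log2 ratios were 0.21 for 10 astrocyte genes, 0.25 for 8 glutamatergic neuron genes, 0.22 for 8 microglial genes, 0.15 for 8 endothelial genes and 0.02 for 8 meningeal and perivascular fibroblast genes. None of these 5 lists held a gene called at 2-fold, and S100b of the astrocyte list, which maturing oligodendrocytes also express, was called at 1.5-fold, as was Tmem119 of the microglial list.

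**Figure D4:**
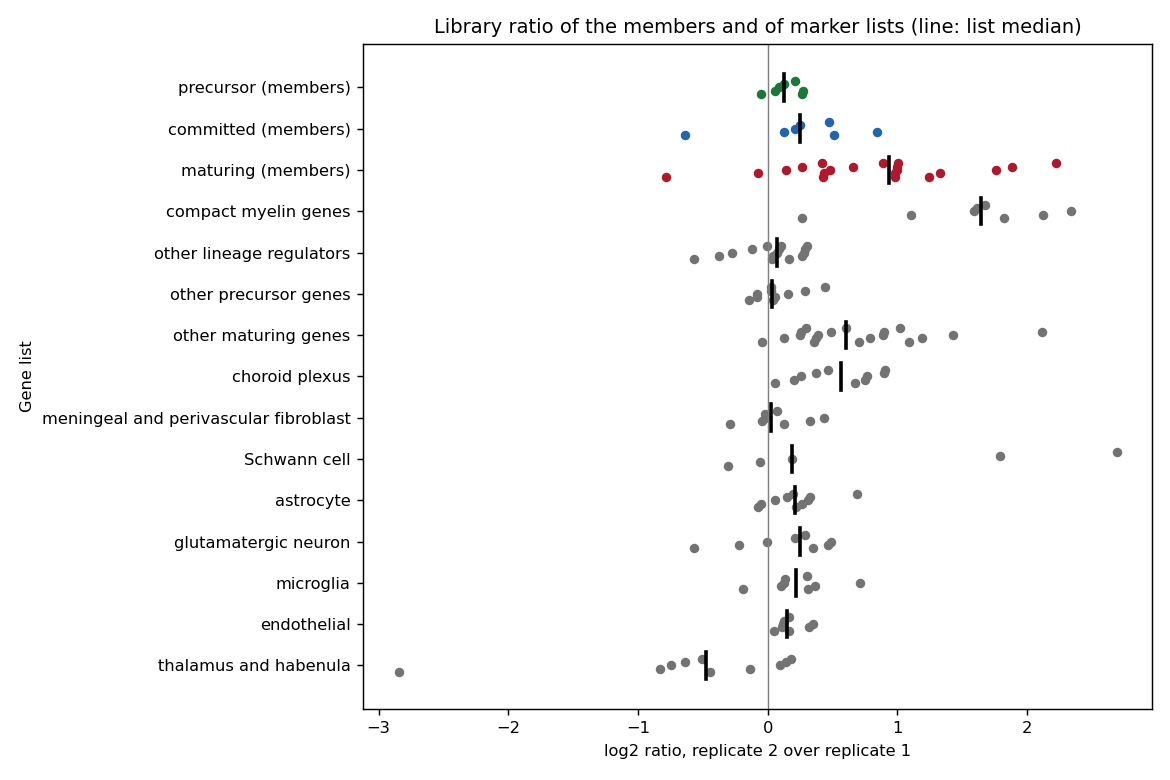
Log2 ratio, replicate 2 over replicate 1, of every tested gene in the 3 member sets (coloured) and 12 marker lists (grey), with a black bar at each list's median. The maturing members (median 0.93), compact myelin genes (1.64), further maturing genes (0.60) and choroid plexus genes (0.57) lie to the right, and thalamus and habenula genes (-0.47) to the left.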

How the data were processed

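Each library came with gene and transcript tables estimated from alignments (alignment-based) and a transcript table made without them (read-based). The deposited files name mm10 and annotation M21 in the readmes that came with the samples; which programs made them is not given in the sources used. The deposited expected counts are unnormalized read estimates for each gene, as are the deposited estimated counts of the read-based table. Deposited TPM is abundance per length scaled to a fixed total, and the deposited interval bounds of transcript TPM were used as they stand. Deposited FPKM, corrected for length and reads, was rescaled over nuclear protein-coding genes in 1 alternative.

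Expected counts were rounded to whole numbers. With 1 group and no contrast, edgeR's quasi-likelihood test could not be fitted, and edgeR 4.0.16 served for TMM scaling only and DESeq2 1.42.0 for size factors only (R 4.3.3). The exact binomial test used scipy 1.17.1 under Python 3.11.15 with pandas 2.3.3 and numpy 2.4.6, and ratios used a pseudocount of 0.5 counts. The test script was tested on simulated data. Counting SEs and intervals (95%) cover counting error only. Scalings by total and by spike-in counts (0.341% and 0.393% of counts), the read-based table, other filters and a 1.5-fold line were the alternatives. Read-based values of a gene are sums over its transcripts. Another 26248 numbered entries with 3 and 4 counts were left out. Signal tracks and alignments were not analysed here. All 157 genes of the lists matched.

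The members, the lists and the rule were chosen with earlier results of these data known. The rule named all members, and of each other list the called genes and the 2 of highest mean TPM, of which only some are described, and some are not reported here. Promoters were to be printed for called members with a mean TPM of 5 or more, which left none, so that minimum was dropped after the values were seen. The maturing minus precursor difference and its alternatives were likewise added after the values were seen.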

Additional observations from a re-analysis of the deposited data

How the results depend on the processing

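The direction and the call of 32 of the 34 members were the same with DESeq2 size factors, of 32 with total counts, of 32 with the read-based table and of 21 with spike-in scaling. Relative to TMM these scalings shift every log2 ratio by 0.01, -0.08 and, for spike-ins, -0.28. With spike-in scaling the sign turned for Pdgfra (-0.16), Cspg4 (-0.20), Olig1 (-0.013), Olig2 (-0.074), Nkx2-2 (-0.23), C1ql1 (-0.016), Gpr17 (-0.16), Itpr2 (-0.036), Fyn (-0.074), Car2 (-0.023) and Qdpr (-0.15), and the set medians became -0.16 (precursor), -0.036 (committed) and 0.65 (maturing), which follows from the shift. The sign of Nkx2-2 also turned with total counts (-0.021) and that of Lhfpl3 with the read-based table (0.029). All genes called numbered 582 as reported, 1276 with spike-in scaling, 64 at 200 or more counts and 1168 at 1.5-fold. Members called numbered 5 as reported, 2 (Mal and Fa2h) at 200 or more counts and 13 at 1.5-fold. They were 7 with DESeq2 size factors, which add Gjc3 and Myrf, 4 with total counts, which lose Fa2h, and 6 with the read-based table, which adds Enpp2. With spike-in scaling they were 5, without Fa2h and with Aspa, which was lower. The maturing median minus the precursor median was 0.81. The choice of scaling cannot change this difference, since each scaling shifts every log2 ratio alike. It was 0.87 without the 7 genes of other cells. With Sirt2, Tspan2, Myrf and Nkx6-2 moved to the committed set it was 0.81, which this move could not change. Sirt2 and Tspan2 lay below the maturing median and Myrf and Nkx6-2 above it, and the precursor set was untouched. In the read-based table the difference was 0.55, for which the cause was not tested. Median TPM in the precursor, committed and maturing sets was 23.0, 26.4 and 10.2 in the read-based table and 37.2, 42.5 and 17.1 when FPKM was rescaled over nuclear protein-coding genes. With either library left out it ran from 16.4 to 17.0, 17.3 to 20.8 and 6.11 to 9.21. The median leading transcript share was 64.2% as reported and 63.1% in the read-based table, and 63.8% to 64.5% with either library left out. Leaving out a library leaves no ratio between libraries. No paired analysis was possible because the 2 libraries form 1 group. Depth limits Nkx6-2, Opalin, Gjb1 and Aspa most, each at 54 counts or fewer in all.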
